A study of Mus musculus with 64 samples.

Results

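The comparison described here set 8 libraries from valproate-treated mice labelled Wildtype against 3 libraries from mice given the vehicle of valproate under the same label, 11 of the 64 libraries in the series. The members were taken from the treatment and genotype labels alone. Each library came from the ventral tegmental area of 1 adult male mouse of the strain labelled 129S1/Svlm, treated for 14 days and sampled at zeitgeber time 6, about 24 h after its last dose, by bilateral punches of 1 mm. The VPA mice received valproate and the vehicle mice its vehicle, at a dose that the labels do not give. Other groups serve here only as points of comparison: VPA and vehicle mice labelled Clock delta 19 mutant (8 and 13 libraries), a line with a dominant-negative germline allele of the circadian gene Clock, and mice labelled Wildtype that received ACY957, which inhibits class I histone deacetylases, or its vehicle (8 and 5 libraries). The design text gives 8 mice for every group, whereas the labels give 3 wildtype mice to the VPA vehicle. The VPA mice carry the numbers 1 to 8 and the vehicle mice 9, 11 and 12, so that anything that runs with mouse number cannot be told apart from the treatment.

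Valproate is a branched short-chain fatty acid used as a mood stabiliser and against seizures. It inhibits class I and class IIa histone deacetylases, enzymes that remove acetyl groups from histone tails, and it also acts on ion channels, on the breakdown of the transmitter GABA, on inositol metabolism and, in the liver, on fatty acid oxidation. The ventral tegmental area holds the dopamine neurons that project to the ventral striatum and cortex, beside GABA and glutamate neurons, astrocytes, oligodendrocytes, microglia and vessels. The punches pooled all of these, and in such bulk samples fewer cells of a type and less RNA per cell cannot be told apart.

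The VPA libraries were deeper than the vehicle libraries without overlap, at 25674864 to 37475292 counted reads per library against 23350486, 22571296 and 24482334. Levels are given as CPM, read counts normalised to library size after trimmed-mean (TMM) correction. Correlations of log2 CPM ran from 0.9734 to 0.9914 between VPA libraries, from 0.9823 to 0.9879 between vehicle libraries and from 0.9782 to 0.9904 across the groups. The averaged level of 8 clock-controlled genes such as Dbp and Per2 (clock output), which splits the 64 libraries into a lower set (up to 4.33 log2 CPM) and an upper set (from 4.91), placed all 8 VPA and all 3 vehicle libraries in the upper set. Th, the rate-limiting enzyme of dopamine synthesis and a marker of the dissected region, was at 98.0 to 1720 CPM (median 1034) in VPA libraries and at 930, 1150 and 938 CPM in vehicle libraries. The lowest value belonged to VPA replicate 3, and the next lowest VPA library was at 560 CPM. Mean log2 CPM of Th differed by -0.36 (exact permutation test, two-sided, p = 0.715 over 165 arrangements, where 0.00606 is the smallest possible), and by 0.071 without VPA replicate 3 (exact p = 0.808).

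VPA treatment went with lower transcript levels of 4 genes, Rlbp1, Igfbp5, Lect1 and Padi2, and no gene passed the test on the higher side. These 4 are 0.0256% of the 15634 genes tested, with edgeR's quasi-likelihood test and a Benjamini-Hochberg adjusted p under 0.05. At an unadjusted p under 0.05 there were 668 genes (4.27%), 320 of them higher (2.05%) and 348 lower (2.23%). DESeq2 called 6 genes and limma voom 3. The median log2 fold change over all genes tested was -0.0015. In 86 genes (0.55%) all 8 VPA libraries lay under the lowest vehicle library, and in 102 (0.652%) all lay above the highest.

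Rlbp1 encodes the cellular retinaldehyde-binding protein, known from the visual cycle of the retina and made by glia. It was at 6.72 to 11 CPM (median 7.16) in VPA libraries and at 10.8, 12.2 and 15 CPM in vehicle libraries. VPA replicate 3 was the highest of the 8 and reached into the vehicle range, and the other 7 lay under every vehicle library. The level averaged 7.78 ± 1.52 CPM (SD, n = 8) with VPA and 12.7 ± 2.17 CPM (SD, n = 3) with vehicle, and it fell by 0.70 on the log2 scale (SE 0.14, adjusted p = 0.0224, edgeR).

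Igfbp5 encodes a secreted protein that binds insulin-like growth factors. It was at 90.9 to 130 CPM (median 105) in VPA libraries and at 212, 195 and 140 CPM in vehicle libraries. All 8 VPA libraries lay under the lowest vehicle library, with vehicle replicate 3 the nearest to them. It averaged 106 ± 12.5 CPM (SD, n = 8) with VPA and 182 ± 37.2 CPM (SD, n = 3) with vehicle, and it fell by 0.78 (SE 0.15, adjusted p = 0.0224, edgeR).

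Lect1, whose current symbol is Cnmd, encodes chondromodulin, a glycoprotein of cartilage that limits vessel growth. It had 10 to 48 reads per VPA library and 55, 51 and 77 reads per vehicle library, although the VPA libraries were the deeper ones. Its levels were 0.306 to 1.49 CPM (median 1.05) with VPA and 2.37, 2.27 and 3.17 CPM with vehicle, with no overlap. It fell by 1.41 (SE 0.28, adjusted p = 0.0224, edgeR), the largest fold among the 4 genes and the lowest level.

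Padi2 encodes a peptidylarginine deiminase, which turns arginine in proteins into citrulline, and in brain it is made mainly by oligodendrocytes, where myelin basic protein is a substrate. It was at 28.6 to 44.4 CPM (median 37.1) in VPA libraries and at 73.7, 61.7 and 65.7 CPM in vehicle libraries, again without overlap. It averaged 37.5 ± 5.33 CPM (SD, n = 8) with VPA and 67.1 ± 6.11 CPM (SD, n = 3) with vehicle, and it fell by 0.84 (SE 0.17, adjusted p = 0.0435, edgeR). Of the 5 peptidylarginine deiminases, Padi2 alone had enough reads to be tested.

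**Figure D1:**
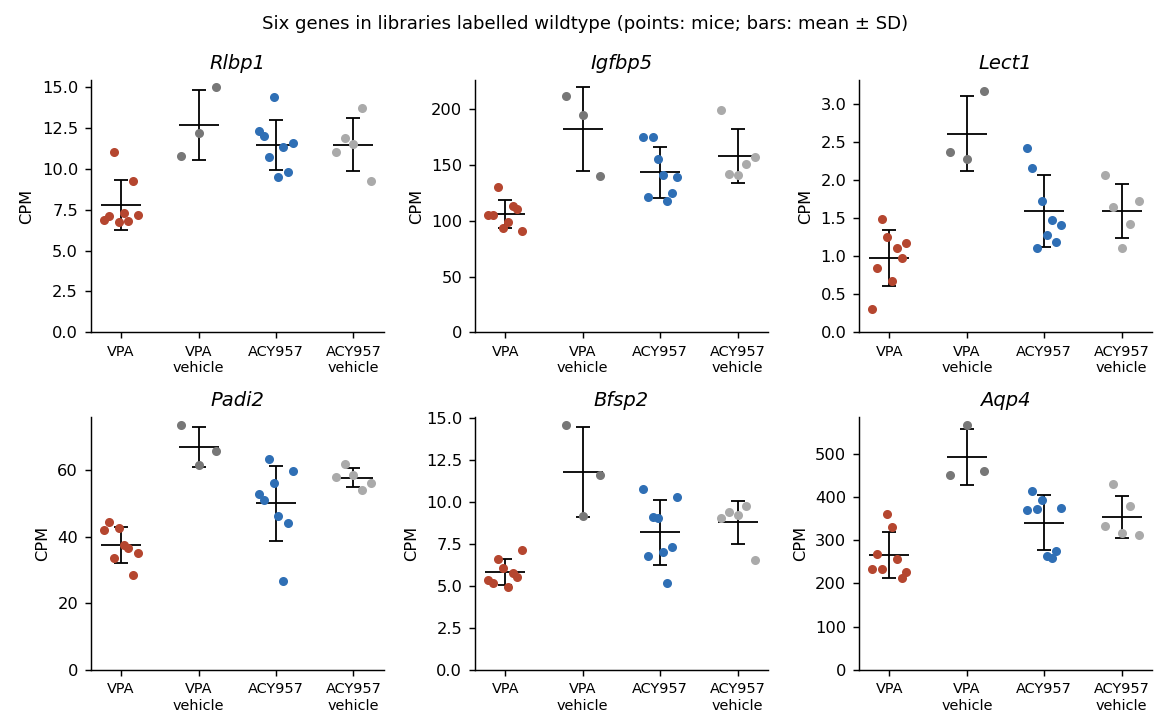
Levels (CPM, vertical axes from 0) of Rlbp1, Igfbp5, Lect1, Padi2, Bfsp2 and Aqp4 in the VPA, VPA vehicle, ACY957 and ACY957 vehicle libraries labelled Wildtype; points are mice and bars the mean ± SD (n = 8, 3, 8 and 5). The VPA libraries of Padi2 (28.6 to 44.4 CPM) lie under every vehicle library of both drugs, whereas those of Rlbp1 (6.72 to 11 CPM) overlap both vehicle groups.

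The 4 genes lie on different chromosomes. Rlbp1 is on chromosome 7 (79374870 to 79387048, minus strand, mm10, GENCODE M21), Igfbp5 on chromosome 1 (72857932 to 72874884, minus strand), Lect1 on chromosome 14 (79637690 to 79662170, minus strand) and Padi2 on chromosome 4 (140906344 to 140952586, plus strand). Their promoters, 250 bases before to 50 bases after the start, are printed because the genes moved in the same direction. They are RefSeq sequences on GRCm38.p6, the assembly UCSC calls mm10: chr7:79386978-79387277 (minus strand), chr1:72874816-72875115 (minus), chr14:79662134-79662433 (minus) and chr4:140906110-140906409 (plus). Capitals mark CCAAT boxes (CCAAT or ATTGG, either strand) and GC boxes (GGGCGG or CCGCCC, either strand), which 37.4% and 35.7% of the 32851 promoters in the table hold.
Rlbp1: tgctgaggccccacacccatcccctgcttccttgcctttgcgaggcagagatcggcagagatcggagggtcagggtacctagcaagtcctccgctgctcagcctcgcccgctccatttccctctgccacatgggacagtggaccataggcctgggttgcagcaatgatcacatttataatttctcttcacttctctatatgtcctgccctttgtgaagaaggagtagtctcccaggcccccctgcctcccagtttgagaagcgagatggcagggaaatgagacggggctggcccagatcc
Igfbp5: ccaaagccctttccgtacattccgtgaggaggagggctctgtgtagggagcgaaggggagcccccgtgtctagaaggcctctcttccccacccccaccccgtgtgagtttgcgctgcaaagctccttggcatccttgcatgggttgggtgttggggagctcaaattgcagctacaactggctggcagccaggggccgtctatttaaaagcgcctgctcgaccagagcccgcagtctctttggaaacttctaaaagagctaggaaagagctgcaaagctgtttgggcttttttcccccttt
Cnmd: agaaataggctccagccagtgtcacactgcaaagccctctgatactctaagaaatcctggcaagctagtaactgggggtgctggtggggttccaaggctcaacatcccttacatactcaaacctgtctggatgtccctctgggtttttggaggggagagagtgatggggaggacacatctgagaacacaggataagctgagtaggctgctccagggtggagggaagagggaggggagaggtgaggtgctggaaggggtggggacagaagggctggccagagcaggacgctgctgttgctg
Padi2: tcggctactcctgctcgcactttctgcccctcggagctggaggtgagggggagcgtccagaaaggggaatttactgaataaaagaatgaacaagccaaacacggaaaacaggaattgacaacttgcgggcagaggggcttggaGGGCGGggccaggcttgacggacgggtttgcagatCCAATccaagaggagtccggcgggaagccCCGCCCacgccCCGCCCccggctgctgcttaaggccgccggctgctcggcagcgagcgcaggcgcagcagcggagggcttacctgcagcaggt
The Padi2 promoter holds 3 GC boxes and 1 CCAAT box, and the other promoters hold neither in these windows.

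Next to these on the lower side, without passing, came Ackr2, Bfsp2 and Aqp4. Aqp4, the water channel of astrocyte endfeet, was at 212 to 361 CPM (median 245) in VPA libraries and at 450, 567 and 460 CPM in vehicle libraries, with no overlap (-0.89 on the log2 scale, SE 0.20, edgeR adjusted p = 0.0615). Bfsp2, an intermediate filament protein of the lens, was at 4.93 to 7.15 CPM (median 5.64) with VPA and at 14.6, 9.20 and 11.6 CPM with vehicle, also with no overlap (-1.02, SE 0.22, adjusted p = 0.0615, edgeR). Both passed in DESeq2 (adjusted p = 0.029 for each).

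Ackr2, an atypical chemokine receptor that clears chemokines, was at 0.125 to 0.821 CPM (median 0.372) in VPA libraries and at 0.258, 0.844 and 5.31 CPM in vehicle libraries, a difference of -2.35 on the log2 scale (SE 0.51, edgeR adjusted p = 0.0615). The groups overlapped, with 4 of 8 VPA libraries under the lowest vehicle library, and vehicle replicate 3 held the highest value. Without that library the difference was -0.39. Plek, the pleckstrin of platelets and myeloid cells, was lower by 0.44 in log2 fold change (SE 0.11). All 8 of its VPA libraries (16.8 to 24.7 CPM) lay under the lowest vehicle library at 24.8 CPM. In the ACY957 vehicle of the same label Plek was at 20.4 to 24 CPM, and 4 of 8 VPA libraries lay under both vehicles. Emp2 (-0.49, SE 0.13), an epithelial membrane protein, Acat3 (-0.72, SE 0.17), Lcat (-0.55, SE 0.15), which esterifies cholesterol on lipoproteins, and Scd1 (-0.32, SE 0.09), which makes monounsaturated fatty acids, followed with adjusted p between 0.218 and 0.506 (edgeR).

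On the higher side the smallest adjusted p was 0.442 (edgeR), for Cryz, a quinone reductase also known as zeta-crystallin. It was at 34.1 to 53.7 CPM (median 38.3) in VPA libraries and at 30.4, 30.0 and 30.1 CPM in vehicle libraries, 0.40 higher on the log2 scale (SE 0.11). All 8 VPA libraries lay above the highest vehicle library, and VPA replicate 5 stood above the other VPA libraries, which ended at 41.1 CPM. Slc1a5, a transporter of neutral amino acids, was at 2.78 to 4.74 CPM with VPA and at 1.98, 2.22 and 2.55 CPM with vehicle (0.71, SE 0.19, adjusted p = 0.449), and Tmed9, a cargo receptor between the endoplasmic reticulum and the Golgi, had a log2 fold change of 0.24 (SE 0.065). The other genes named on this side were H2-M3, Snhg17, Wdsub1, Plin5, Stoml1, Alyref2, Emc1 and Exosc2, with log2 fold changes from 0.21 (Emc1) to 1.07 (Plin5). Without vehicle replicate 1 Exosc2 was at 0.15 and Stoml1 at 0.13. In the ACY957 vehicle of the same label, means were 115 CPM (Emc1), 54.4 CPM (Stoml1), 14.1 CPM (Wdsub1) and 1.72 CPM (Snhg17). With VPA they were 115, 52.9, 14.5 and 1.83 CPM, and in the VPA vehicle 99.1, 45, 11.7 and 1.04 CPM, in the same order. For H2-M3, Plin5, Alyref2 and Exosc2 the ACY957 vehicle mean lay between those of the VPA vehicle and VPA. The part of low VPA vehicle levels in these fold changes was not tested. Plin5, a coat protein of lipid droplets, was at 1.08 to 1.87 CPM (median 1.56) in VPA libraries and at 0.560, 1.07 and 0.535 CPM in vehicle libraries. Cyp4b1 had 5 to 16 reads per VPA library and 1, 1 and 0 reads in the vehicle libraries, which is too few for a fold change.

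The 4 calls rested on few libraries. Without vehicle replicate 2 or VPA replicate 5, 0 genes passed. Without vehicle replicate 3 only Igfbp5 passed, without vehicle replicate 1 Rlbp1 and Ackr2 did, and without VPA replicate 6 Igfbp5 and Lect1 did. Without VPA replicate 5 the adjusted p was 0.0514 for each of the 4 genes (edgeR). In a fit to just the 11 libraries, Padi2 and Igfbp5 passed beside Bfsp2 and Igsf1, and Lect1 and Rlbp1 were at an adjusted p of 0.32. Over the 20 alternatives Igfbp5 passed in 17, Rlbp1 in 15, Lect1 in 14 and Padi2 in 10, and all 4 kept their direction. When reads were thinned to the smallest library, which removed the difference in depth, Rlbp1, Lect1 and Igfbp5 passed and Padi2 was at an adjusted p of 0.0537.

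**Figure D2:**
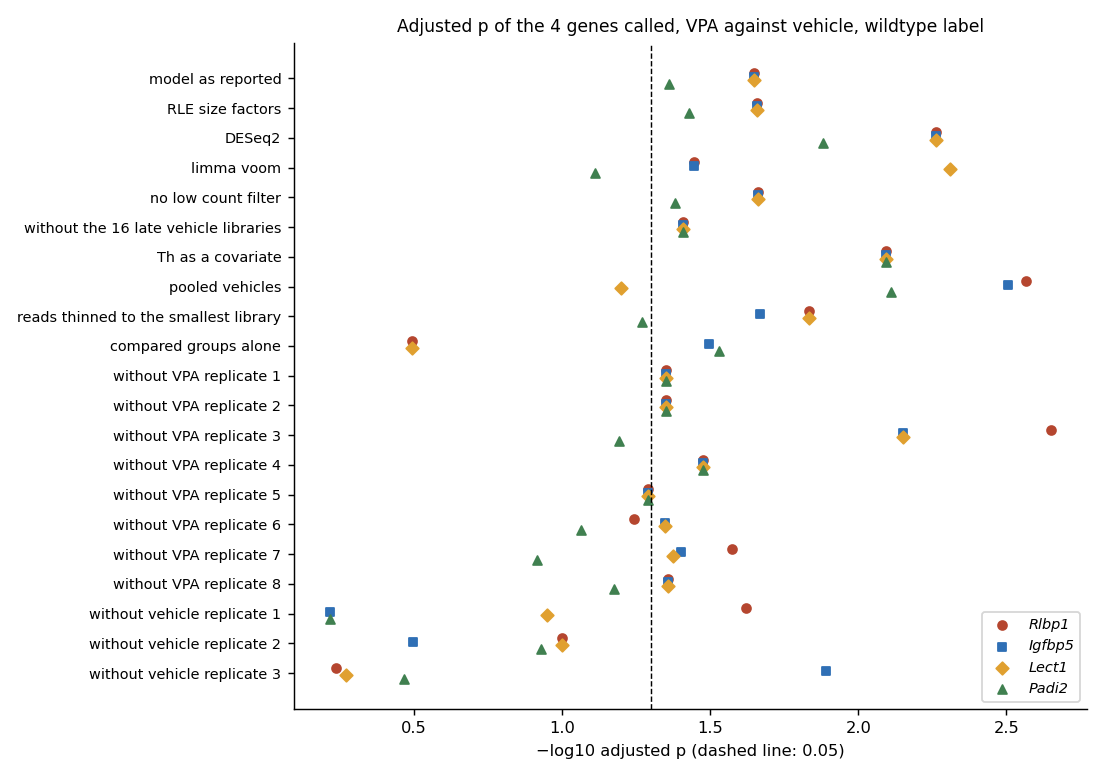
Adjusted p of Rlbp1, Igfbp5, Lect1 and Padi2 (horizontal axis, -log10 scale, dashed line at 0.05) under the model as reported and each alternative (rows). No gene lies right of the line without VPA replicate 5 or vehicle replicate 2, and Igfbp5 passed in 17 of 20 alternatives.

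The same drug was given to mice labelled Clock delta 19 mutant, and the VPA effects of the genotype labels come from separate libraries. Rlbp1 had a log2 fold change of 0.05 (SE 0.09) under the mutant label, against -0.70 under the wildtype label. Under the mutant label 9 genes passed (0.0576%), and none of them was Rlbp1, Igfbp5, Lect1 or Padi2. Lect1 had one of 0.41 (SE 0.20) under the mutant label, Igfbp5 of -0.26 (SE 0.11) and Padi2 of -0.24 (SE 0.12). The difference between the labels was tested directly, and 1 gene (0.0064% of those tested) passed, with 444 (2.84%) at an unadjusted p under 0.05 and 1 each by DESeq2 and voom. That gene was Lect1, whose VPA effect was lower under the wildtype label by 1.82 (SE 0.34, adjusted p = 0.029, edgeR). Its levels under the mutant label were 0.687 to 2.48 CPM (median 1.15) with VPA and 0.663 to 1.77 CPM (median 1.08) with vehicle, with overlap, set against 2.27 to 3.17 CPM in the wildtype-labelled vehicle. Rlbp1 had a difference of -0.75 (SE 0.17, adjusted p = 0.244), and Snhg17, Pmch and Slc1a5 followed without passing. Of the 9 genes that passed under the mutant label, 3 were hypothalamic neuropeptides, markers of tissue in front of the region. Pmch, which passed there, was at 4.48 to 542 CPM with VPA and at 3.28 to 13.1 CPM with vehicle. Th under that label was at 26.3 to 1430 CPM (median 603) with VPA and at 202 to 1360 CPM (median 822) with vehicle. The part of the dissection in these values was not tested.

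The Lect1 difference did not pass, and 0 genes did, when only the compared groups were fitted. The same held without the 16 mutant-labelled vehicle libraries of the highest mouse numbers. The count was also 0 when VPA replicate 2 or 5, or vehicle replicate 1, 2 or 3, of the wildtype label was left out. It was 0 as well without VPA replicate 2, 4 or 5, or vehicle replicate 5, 10 or 13, of the mutant label, and 2 without wildtype-labelled VPA replicate 3 or with no filter on low counts. Of the mutant-labelled libraries, 1 of 8 VPA and 6 of 13 vehicle libraries lay in the upper set of clock output, the set that holds the 11 wildtype-labelled VPA and vehicle libraries. The part of this mixture in the difference was not tested.

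ACY957 in mice labelled Wildtype gave 1 gene past the test (0.0064%), Nmu, a neuropeptide named here after its value was seen, and none of the 4 above. Of the 8 ACY957 libraries 7 lay in the upper set of clock output and replicate 8 in the lower set, whereas all 5 ACY957 vehicle libraries lay in the upper set. The ACY957 log2 fold changes were -0.0025 (SE 0.12) for Rlbp1, -0.14 (SE 0.13) for Igfbp5, 0.0092 (SE 0.25) for Lect1 and -0.21 (SE 0.15) for Padi2, and these come from libraries that the VPA effect does not share. Without ACY957 replicate 8 they were -0.0055, -0.13, 0.033 and -0.25 in the same order of genes, and Nmu alone passed again. In the direct test of the VPA effect minus the ACY957 effect, 0 genes passed in edgeR, DESeq2 or voom, with 418 (2.67%) at an unadjusted p under 0.05 in edgeR. The smallest p were those of Acat3, Rlbp1 (-0.70, SE 0.18), Brf2, Lect1 (-1.42, SE 0.38) and Ccdc94, all at an adjusted p of 1 (edgeR). The difference was -0.64 (SE 0.21) for Igfbp5 and -0.63 (SE 0.23) for Padi2.

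**Figure D3:**
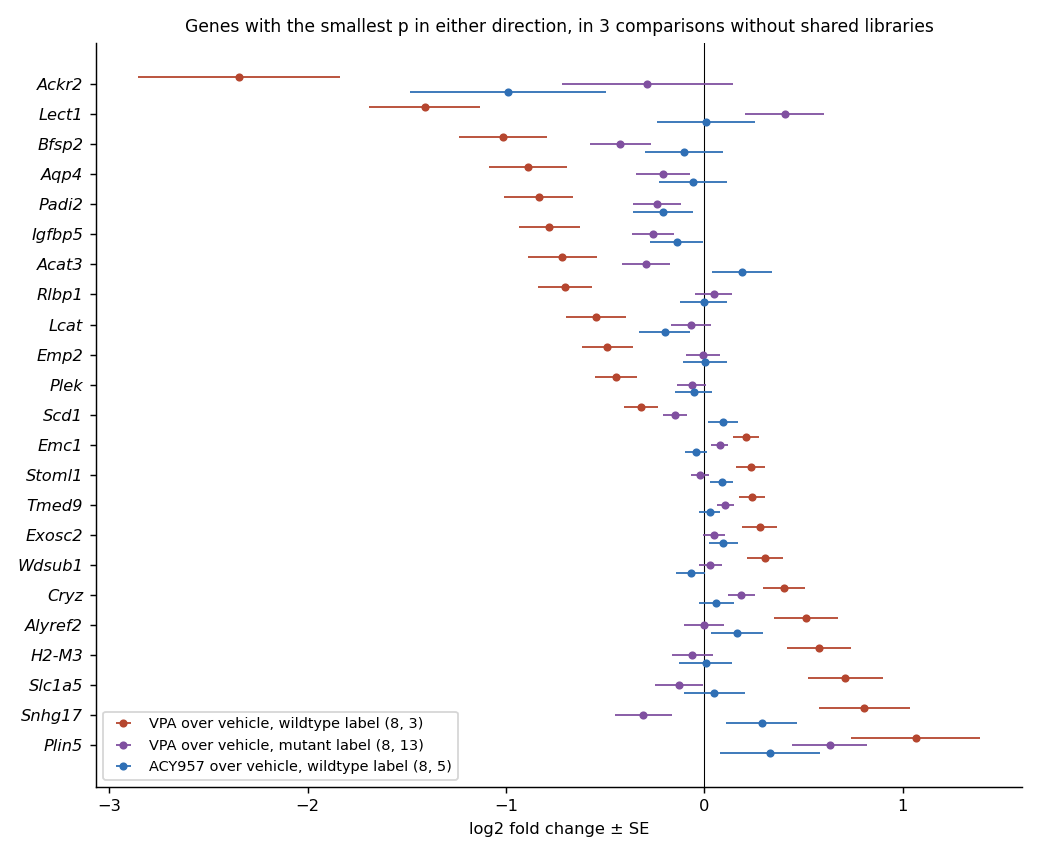
Log2 fold changes ± SE (horizontal axis) of 23 of the genes nearest the threshold on either side for VPA over vehicle in mice labelled Wildtype (red), beside the same drug under the mutant label (purple) and ACY957 over vehicle in mice labelled Wildtype (blue). Lect1 is at -1.41, 0.41 and 0.0092, Bfsp2 at -1.02, -0.42 and -0.10, and Cyp4b1, with 0 or 1 read per vehicle library, is left out.

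The 3 VPA vehicle libraries can be set beside the 5 ACY957 vehicle libraries of the same label. Between them 0 genes passed in edgeR, DESeq2 or voom, with 705 (4.51%) at an unadjusted p under 0.05 in edgeR, and Lrfn4, Rgcc, Brf2, Bcl7a and Drd1 had the smallest p. Padi2 was at 61.7 to 73.7 CPM in the VPA vehicle and at 54.2 to 61.8 CPM in the ACY957 vehicle, and all 8 VPA libraries lay under both. Igfbp5 was at 140 to 212 CPM and at 141 to 199 CPM in these vehicles, and again all 8 VPA libraries lay under both. Lect1 was at 2.27 to 3.17 CPM in the VPA vehicle and at 1.11 to 2.07 CPM in the ACY957 vehicle, and 4 of 8 VPA libraries lay under both. Aqp4 was at 450 to 567 CPM and at 312 to 429 CPM, and 6 of 8 VPA libraries lay under both. Bfsp2 was at 9.20 to 14.6 CPM and at 6.53 to 9.80 CPM, and 6 of 8 VPA libraries lay under both. Scd1 was at 675 to 737 CPM and at 667 to 824 CPM, and all 8 VPA libraries lay under both. With both vehicles pooled as the control, 6 genes passed: Rlbp1, Igfbp5, Padi2, Scd1 and Mras on the lower side and Cryz on the higher side (adjusted p = 0.0498), while Lect1 did not (adjusted p = 0.0633, edgeR).

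The gene lists described next rest on the same 3 vehicle libraries, and for 24 of the 40 the sign of the median depended on which single library was left out. Of the 91 genes that the naming rules chose, 37 had a log2 fold change that shrank by over 1.5 times or turned sign without 1 library, 17 of them without vehicle replicate 1 and 14 without vehicle replicate 3, and none of the 4 that passed was among them. Of 23 genes of class I histone deacetylases and their corepressor complexes, 16 were higher and 7 lower, 0 passed, and 0 had an unadjusted p under 0.05. Their median log2 fold change was 0.025, and Rcor1, a corepressor subunit, had the smallest p (0.29, SE 0.16, unadjusted p = 0.0734). Hdac1 was at a mean of 18.7 CPM with VPA and 18.6 CPM with vehicle, Hdac2 at 90.2 and 92.8 CPM, and Hdac3 at 94.7 and 91.9 CPM. Of 7 class II and class IV deacetylases, 3 were higher and 4 lower (median -0.064). Of 12 histone acetyltransferases and bromodomain readers of acetylated histones, 10 were lower (median -0.080), with 0 past the test in either list.

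Genes that deacetylase inhibitors commonly raise in cultured cells were split in direction, with 11 of 18 higher, 7 lower and a median of 0.036. Ctgf, a matricellular growth factor, was at 12.7 to 29 CPM (median 17) in VPA libraries and at 8.96, 12.1 and 12.1 CPM in vehicle libraries, with every VPA library above the vehicle range (0.77 on the log2 scale, SE 0.36, unadjusted p = 0.0344, adjusted p = 1, edgeR). Clu, the chaperone clusterin, was at 615 to 840 CPM (median 746) with VPA and at 956, 820 and 847 CPM with vehicle (-0.23, SE 0.085). Gadd45b, a stress-induced gene, was at 4.15 to 6.64 CPM (median 5.26) with VPA and at 4.82, 6.89 and 7.57 CPM with vehicle, with overlap (-0.28, SE 0.14, unadjusted p = 0.0493), and its log2 fold change was -0.15 without vehicle replicate 3. H1f0, the linker histone, had means of 96.1 CPM with VPA and 94.3 CPM with vehicle, and Bdnf, the neurotrophin, of 42.3 and 38.6 CPM. Of 11 genes of BDNF and GDNF signalling, 4 were higher and 7 lower, and Sort1, a sorting receptor for neurotrophins, was lower in all 8 VPA libraries than in any vehicle library (log2 fold change -0.20, SE 0.087). Of 13 genes of inositol recycling and GSK3, 5 were higher and 8 lower. The 1 member with an unadjusted p under 0.05 was Slc5a11, a transporter of inositol, at 1.08 to 1.96 CPM (median 1.64) with VPA and 2.37, 1.47 and 2.88 CPM with vehicle, with overlap (-0.49, SE 0.24, and -0.27 without vehicle replicate 3). Of 8 genes of GABA synthesis, transport and breakdown, 3 were higher and 5 lower. Abat, the GABA transaminase, had means of 725 CPM with VPA and 737 CPM with vehicle. In each of these lists 0 genes passed.

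Genes of sterol and lipid synthesis had mostly negative fold changes, and none passed. All 23 genes of cholesterol synthesis and uptake had a log2 fold change under 0, as 50.5% of all genes tested did, with a median of -0.18, and 8 of the 23 were lower at an unadjusted p under 0.05, as 2.23% of all genes were. Msmo1, a methylsterol oxidase, was at 246 to 302 CPM (median 262) in VPA libraries and at 277, 358 and 393 CPM in vehicle libraries (-0.35, SE 0.10, adjusted p = 0.682, edgeR). The groups overlapped, with 5 of 8 VPA libraries under the lowest vehicle library. Cyp51, the lanosterol demethylase, was at 159 to 196 CPM (median 170) with VPA and at 193, 210 and 230 CPM with vehicle (-0.28, SE 0.093), Idi1, the isopentenyl isomerase, had a log2 fold change of -0.41 (SE 0.16) and Dhcr7, which makes the last step of synthesis, of -0.29 (SE 0.13). Dhcr7 was at 50.2 to 67.1 CPM (median 56.8) with VPA and at 51.2, 67.5 and 92.3 CPM with vehicle, and its log2 fold change was -0.049 without vehicle replicate 3. Srebf2, the factor that drives these genes, had means of 165 CPM with VPA and 172 CPM with vehicle.

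The values of the cholesterol genes varied between single libraries. Relative to the vehicle mean, their median lay between -0.50 (VPA replicate 3) and -0.029 (VPA replicate 8) in VPA libraries and at -0.20, 0.051 and 0.15 in vehicle replicates 1, 2 and 3, so that vehicle replicate 1 lay inside the VPA range. The median log2 fold change was -0.27 without vehicle replicate 1, -0.080 without vehicle replicate 3 and -0.11 without VPA replicate 3, and 21 of 23 genes were lower in each of the last 2 settings. In comparisons from other libraries, VPA under the mutant label gave 22 of 23 lower (median -0.12, where 50.4% of all genes were lower), and ACY957 under the wildtype label gave 21 of 23 lower (median -0.17, where 50.8% were), or 20 of 23 without ACY957 replicate 8.

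Sterol genes are read under SREBP factors, which act with NF-Y at CCAAT boxes and with Sp1 at GC boxes. Of the list, 16 genes matched the RefSeq table, with 19 promoters. A CCAAT box was in 16 of these 19 (84.2%) and a GC box in 16 (84.2%), set against 37.4% and 35.7% of all promoters, and CACCCCAC, the core of a sterol element, searched on both strands, was in 1 (5.26%, against 2.87% of all). The set of all promoters was not limited to genes tested here. In the glucocorticoid responsive list described below, 28 promoters held a CCAAT box in 13 (46.4%) and a GC box in 15 (53.6%). All of these are matches of letters and not sites shown to be bound. The promoters of the genes with the smallest p in the list lie at chr8:64733529-64733828 (minus strand) and chr5:4104648-4104947 (minus strand), with the same boxes in capitals.
Msmo1: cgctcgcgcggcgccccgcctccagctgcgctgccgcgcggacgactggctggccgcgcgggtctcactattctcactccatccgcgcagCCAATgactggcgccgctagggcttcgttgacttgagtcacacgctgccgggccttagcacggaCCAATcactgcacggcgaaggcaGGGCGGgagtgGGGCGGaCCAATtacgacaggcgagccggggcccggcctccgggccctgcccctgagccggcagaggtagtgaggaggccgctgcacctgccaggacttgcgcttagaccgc
Cyp51: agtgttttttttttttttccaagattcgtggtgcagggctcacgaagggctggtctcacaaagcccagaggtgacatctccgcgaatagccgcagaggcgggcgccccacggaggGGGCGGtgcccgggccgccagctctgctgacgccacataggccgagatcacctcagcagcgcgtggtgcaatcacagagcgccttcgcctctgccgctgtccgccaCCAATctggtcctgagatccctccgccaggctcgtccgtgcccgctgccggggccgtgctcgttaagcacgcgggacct
The Msmo1 promoter holds 3 CCAAT boxes and 2 GC boxes, and the Cyp51 promoter holds 1 of each.

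In fatty acid synthesis 13 of 14 genes had a log2 fold change under 0, as 50.5% of all genes did. The median was -0.16, and 0 passed the test. At an unadjusted p under 0.05 (edgeR) 5 were lower (2.23% of all genes) and 1 higher (2.05%). The median ran from -0.18 to -0.12 when single libraries were left out. In other libraries, VPA under the mutant label gave 11 of 14 lower (median -0.14, where 50.4% of all genes were). ACY957 under the wildtype label gave 6 of 14 lower (median 0.028, where 50.8% were). Scd1 was at 376 to 659 CPM (median 572) in VPA libraries and at 737, 675 and 702 CPM in vehicle libraries, with no overlap. Me1, which supplies NADPH, had a log2 fold change of -0.20 (SE 0.082), and of -0.12 without vehicle replicate 3. Thrsp, a lipogenic nuclear protein, was at 15 to 23.1 CPM (median 17.7) with VPA and at 18.3, 20.4 and 28.5 CPM with vehicle (-0.29, SE 0.12), and its log2 fold change was -0.075 without vehicle replicate 3. Srebf1, which encodes the factor that drives fatty acid synthesis, was the 1 member that was higher, at 93.8 to 129 CPM (median 110) with VPA and at 93.7, 89.0 and 94.4 CPM with vehicle (0.28, SE 0.094, unadjusted p = 0.00468, adjusted p = 0.924, edgeR). In the ACY957 vehicle of the same label Srebf1 was at 104 to 122 CPM, inside the range of the VPA libraries. Its log2 fold change for VPA over vehicle ran from 0.072 to 0.31 over the alternatives. Fatty acid oxidation had 18 of 22 tested genes higher and a median of 0.077. Acaa2, a mitochondrial thiolase, was at 41 to 55.9 CPM (median 44.6) with VPA and at 37.5, 34.4 and 37.5 CPM with vehicle, with every VPA library above the vehicle range (0.33, SE 0.12), and Acads, the short-chain dehydrogenase, had a log2 fold change of 0.27 (SE 0.098). The median of the oxidation list was 0.148 without vehicle replicate 3 and 0.054 without vehicle replicate 1. In comparisons from other libraries, VPA under the mutant label gave 15 of 22 higher (median 0.018). ACY957 under the wildtype label gave 10 of 22 higher (median -0.029).

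**Figure D4:**
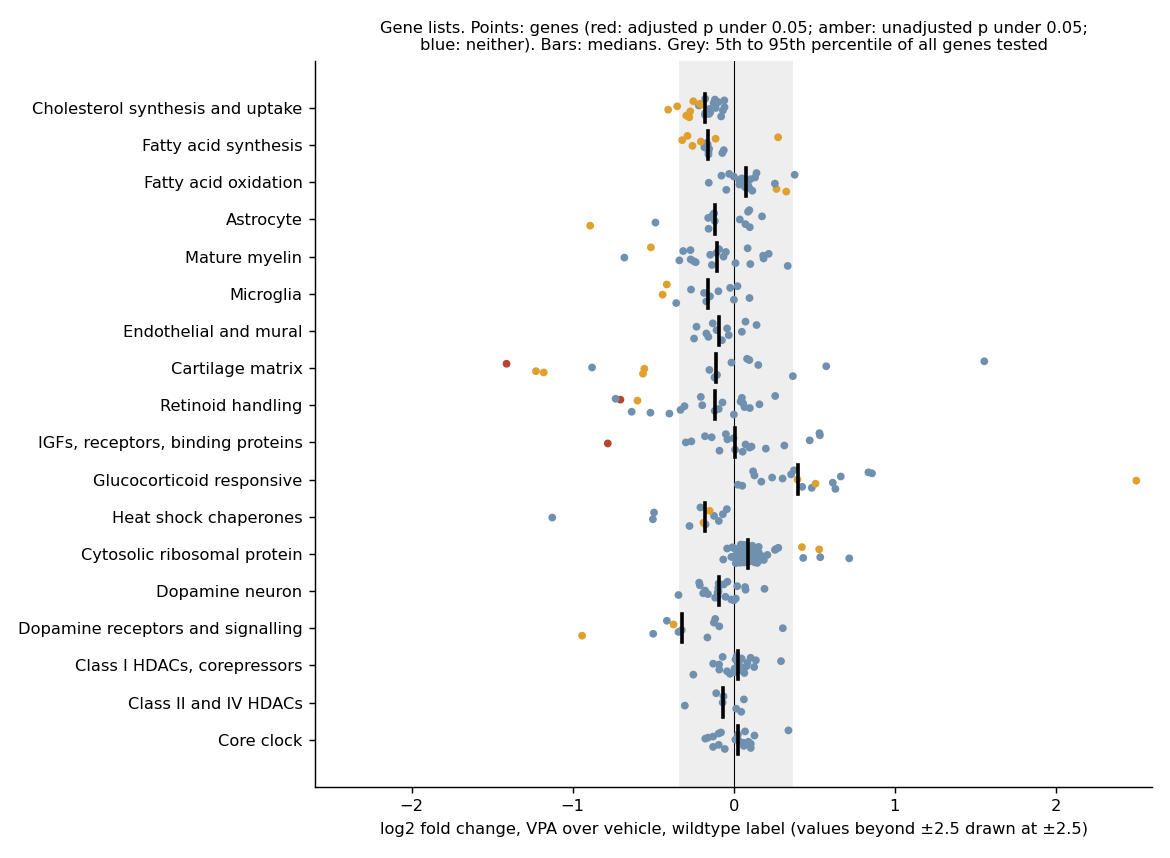
Log2 fold changes (horizontal axis) of the tested members of 18 gene lists (rows), VPA over vehicle in mice labelled Wildtype; points are genes, coloured by whether the adjusted or the unadjusted p was under 0.05, bars are list medians and the grey band holds the 5th to 95th percentile of all genes tested. Cholesterol genes lie left of 0 (median -0.18) and glucocorticoid responsive genes right of it (median 0.40), and no gene of these 2 lists passed.

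The genes that passed have relatives that were measured beside them. In the list of insulin-like growth factors, their receptors and binding proteins, 10 of 19 tested were higher and 9 lower, with a median of 0.0085, and Igfbp5 alone had an unadjusted p under 0.05. Igfbp2 had means of 37.6 CPM with VPA and 34.8 CPM with vehicle, Igfbp4 of 22.1 and 21 CPM, and Igf1r, the receptor, of 26.7 and 26.6 CPM. Among 16 genes of cartilage matrix and relatives of chondromodulin, 6 were higher and 10 lower (median -0.11), and Lect1 passed. Another 4 of these were lower at an unadjusted p under 0.05, as 2.23% of all genes were: Col9a3 (-0.56, SE 0.17), Col9a1 (-1.23, SE 0.43), Col2a1 (-1.18, SE 0.50) and Col11a2 (-0.56), chains of cartilage collagens. Col9a3 was at 4.05 to 9.72 CPM (median 8.26) in VPA libraries and at 13.2, 11.2 and 10.3 CPM in vehicle libraries, with no overlap. Col9a1 and Col2a1 had 2 to 13 and 3 to 12 reads per VPA library and 17, 11 and 9, and 15, 15 and 8 reads per vehicle library. Tnmd, the closest relative of Lect1, had means of 3.91 CPM with VPA and 3.70 CPM with vehicle.

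Retinoid handling held 21 tested genes, 8 higher and 13 lower (median -0.12). Beside Rlbp1, Rdh5, the retinol dehydrogenase that works with it in the retina, was at 5.20 to 8.25 CPM (median 7.60) with VPA and at 8.57, 12.1 and 12.2 CPM with vehicle, with no overlap (-0.60, SE 0.19, unadjusted p = 0.00269, adjusted p = 0.859, edgeR). Aldh1a1, which marks a subset of dopamine neurons and makes retinoic acid, had means of 972 CPM in both groups. In brain proteoglycan matrix 8 of 16 were higher and 8 lower. Sparc, a matrix protein of glia and vessels, was at 2220 to 2680 CPM (median 2350) in VPA libraries and at 2070, 1750 and 1580 CPM in vehicle libraries, with every VPA library above the vehicle range (0.41, SE 0.14, unadjusted p = 0.00591), and Ncan, neurocan, was at 44 to 61.1 CPM with VPA and at 69.7, 69.2 and 66.3 CPM with vehicle, with every VPA library below it (-0.30, SE 0.14). Ptprz1, a receptor phosphatase with a proteoglycan form, had a log2 fold change of -0.16 (SE 0.081).

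Markers of astrocytes were split in direction. Of 13 astrocyte markers 6 were higher and 7 lower (median -0.12), and their summed level was 7990 to 10100 CPM with VPA and 8600 to 9410 CPM with vehicle. Aldh1l1 had means of 91.7 CPM with VPA and 102 CPM with vehicle, Slc1a3 of 645 and 607 CPM and Gfap of 121 and 169 CPM. Kcnj10, the potassium channel that shares the astrocyte endfoot with Aqp4, was at 366 to 769 CPM (median 537) in VPA libraries and at 940, 620 and 754 CPM in vehicle libraries, with overlap (-0.49, SE 0.20, and -0.32 without vehicle replicate 1). Of 24 potassium channel genes 10 were higher and 14 lower.

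Of 21 myelin genes 7 were higher and 14 lower (median -0.11), at summed levels of 14800 to 21800 CPM with VPA and 17400 to 23100 CPM with vehicle. In comparisons from other libraries, VPA under the mutant label gave 21 of 21 lower (median -0.24, where 50.4% of all genes were lower). ACY957 under the wildtype label gave 18 of 21 lower (median -0.066, where 50.8% were), and 0 passed in either. For VPA under the wildtype label the myelin median turned to 0.16, with 7 lower, without vehicle replicate 3. Ugt8a, which makes the galactolipids of myelin, was at 161 to 286 CPM (median 258) with VPA and at 306, 325 and 438 CPM with vehicle, with no overlap (-0.51, SE 0.21, unadjusted p = 0.0191, adjusted p = 1, edgeR), and its log2 fold change was -0.34 without vehicle replicate 3. Mbp, a substrate of Padi2, had means of 5900 CPM with VPA and 6530 CPM with vehicle. In oligodendrocyte precursors and newly formed oligodendrocytes 5 of 14 were higher and 9 lower (median -0.018), and Gpr17 (-0.48, SE 0.21) and Enpp6 (-0.45, SE 0.21), both of newly formed cells, were lower and Bmp1 higher (0.22, SE 0.11) at an unadjusted p under 0.05. Gpr17 was at -0.18 without vehicle replicate 1 and Enpp6 at -0.21 without vehicle replicate 3. The mean of Gpr17 was 33.8 CPM with VPA, 47.2 CPM in the VPA vehicle and 30.9 CPM in the ACY957 vehicle. For Enpp6 these means were 13.2, 18 and 17.2 CPM.

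Of 12 microglia markers 3 were higher and 9 lower (median -0.16), with summed levels of 674 to 940 CPM with VPA and 870 to 919 CPM with vehicle. The VPA vehicle was higher than the ACY957 vehicle in 11 of these 12 genes (median 0.11), with the same 3 vehicle libraries. In other libraries, VPA under the mutant label gave 9 of 12 lower (median -0.026, where 50.4% of all genes were). ACY957 under the wildtype label gave 10 of 12 lower (median -0.11, where 50.8% were). Ctss, the lysosomal protease cathepsin S, was at 93.8 to 136 CPM (median 112) in VPA libraries and at 153, 152 and 151 CPM in vehicle libraries, with no overlap (-0.44, SE 0.13, unadjusted p = 0.00146, adjusted p = 0.814, edgeR). In the ACY957 vehicle Ctss was at 118 to 149 CPM, and 6 of 8 VPA libraries lay under both vehicles. Trem2, a lipid receptor of microglia, had means of 11.8 CPM with VPA and 15.7 CPM with vehicle (-0.42, SE 0.15), whereas Tmem119 had 25.9 and 25.5 CPM and C1qb 52 and 51.9 CPM. Of 12 endothelial and mural markers 3 were higher and 9 lower (median -0.090), with the smallest p for Rgs5, a pericyte gene (-0.23, SE 0.15), and of 12 meningeal fibroblast markers 6 were higher and 6 lower, with Col3a1 lower (-1.04, SE 0.37). Of 12 ependymal and choroid plexus markers 7 were higher and 5 lower, with the smallest p for the ciliary gene Dnah11 (1 to 20 reads a library with VPA and 0, 1 and 2 reads with vehicle), at summed levels of 18.5 to 80.4 CPM with VPA and 22 to 111 CPM with vehicle. No gene of these lists passed. The part of cell composition in the levels of Padi2, Aqp4 or Rlbp1 was not tested.

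All 19 glucocorticoid responsive genes had a log2 fold change above 0, as 49.5% of all genes did, with a median of 0.40 and 0 past the test. Fkbp5, a cochaperone of the glucocorticoid receptor, was at 26.1 to 43.2 CPM (median 29.9) in VPA libraries and at 26.9, 22.7 and 19.0 CPM in vehicle libraries (0.51, SE 0.22, unadjusted p = 0.0261, adjusted p = 1, edgeR). Mt1, a metallothionein, was at 229 to 292 CPM (median 246) with VPA and at 201, 175 and 195 CPM with vehicle, with no overlap (0.40, SE 0.15). Sgk1, a kinase induced by the hormone, had means of 333 CPM with VPA and 183 CPM with vehicle (0.86, unadjusted p = 0.18). Relative to the vehicle mean, the list's median was 0.046 to 0.85 in VPA libraries and 0.28, 0.23 and -0.48 in vehicle replicates 1, 2 and 3. Without vehicle replicate 3 the median log2 fold change was 0.23 and 13 of 19 were higher, and without vehicle replicate 1 it was 0.56. Separate libraries gave a median of 0.20 with VPA under the mutant label and 0.32 with ACY957 under the wildtype label (0.34 without ACY957 replicate 8). The VPA vehicle was higher than the ACY957 vehicle in 17 of the 19 genes, by a median of 0.41, in a comparison that shares the 3 vehicle libraries with the VPA effect.

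**Figure D5:**
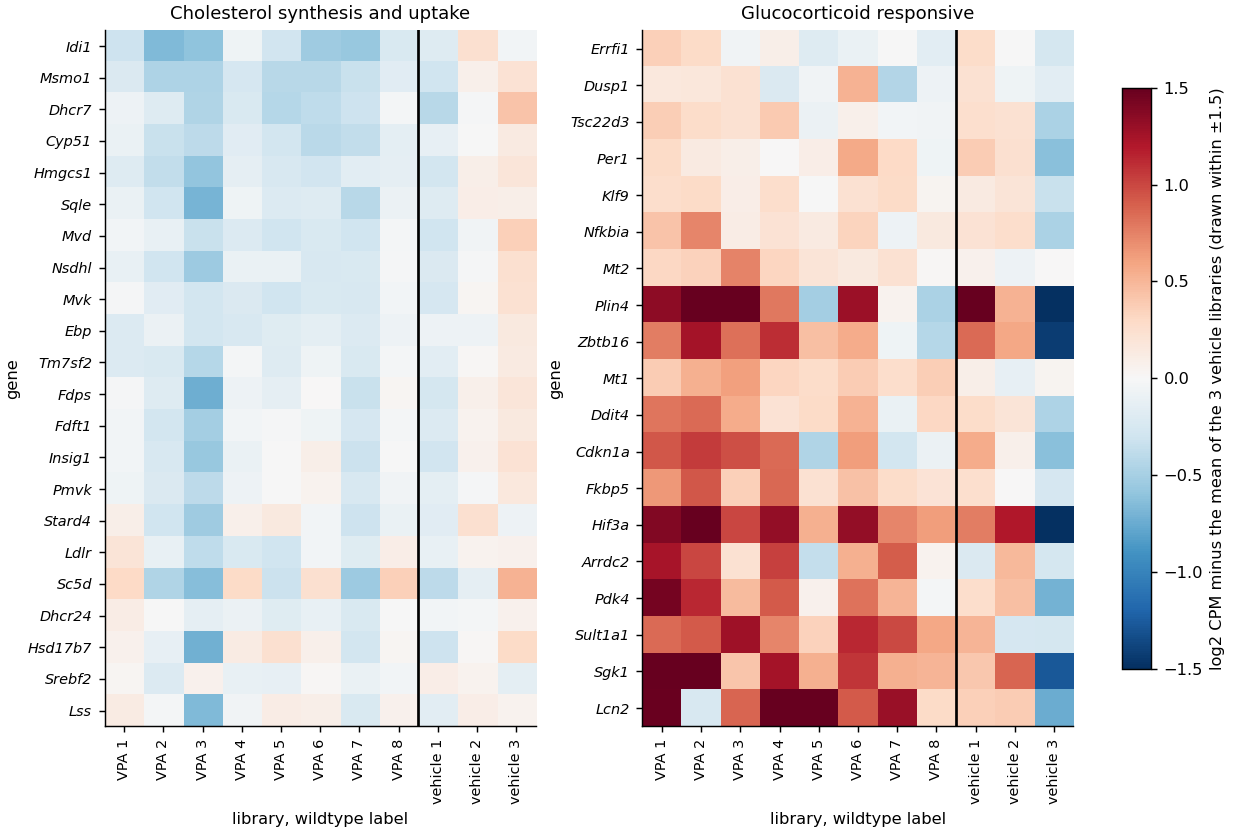
Log2 CPM minus the mean of the 3 vehicle libraries (colour, drawn within ±1.5) for the cholesterol and the glucocorticoid responsive genes (rows) in each library labelled Wildtype (columns, VPA left of the line); 1 cholesterol gene is not drawn. Vehicle 1 resembles the VPA libraries in cholesterol genes (median -0.20), and vehicle 3 is the low library in glucocorticoid genes (median -0.48).

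Chaperones were lower in the heat shock list, with 12 of 12 under 0 and a median of -0.18, and 0 passed. The VPA vehicle was higher than the ACY957 vehicle in 12 of these 12 genes (median 0.25), a comparison with the same 3 vehicle libraries. In other libraries, VPA under the mutant label gave 11 of 12 lower (median -0.12, where 50.4% of all genes were lower). ACY957 under the wildtype label gave 6 of 12 lower (median 0.0089, where 50.8% were). Hsp90aa1, the inducible cytosolic HSP90, was at 624 to 773 CPM (median 713) with VPA and at 932, 748 and 740 CPM with vehicle (-0.19, SE 0.083), with overlap. Hspd1, the mitochondrial chaperonin, had a log2 fold change of -0.15 (SE 0.071). The high value of Hsp90aa1 was that of vehicle replicate 1, and without it Hsp90aa1 was at -0.071, Hspd1 at -0.070 and the median of the list was -0.015 with 7 of 12 lower. Of 19 chaperones and regulators of the endoplasmic reticulum 4 were higher and 15 lower (median -0.11), among them Calr, calreticulin (-0.20, SE 0.095), and without vehicle replicate 1 the median was 0.082. In this list the VPA vehicle was higher than the ACY957 vehicle in 16 of 19 genes (median 0.23). The cold inducible RNA-binding genes Rbm3 (0.63, SE 0.27) and Cirbp (0.46, SE 0.22, and 0.25 without vehicle replicate 1) were higher without passing, and Rbm3 was at 46.4 to 134 CPM (median 71.9) in VPA libraries and at 45.7, 50.2 and 53.7 CPM in vehicle libraries. Immediate early genes had 9 of 15 tested higher, with Jun lower (-0.24, SE 0.11, and -0.068 without vehicle replicate 1), and interferon-induced genes 7 of 15 higher, with Stat2 lower in every VPA library than in any vehicle library (-0.34, SE 0.17, unadjusted p = 0.0554).

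Of 82 cytosolic ribosomal protein genes 77 were higher and 5 lower, with a median of 0.086 and 0 past the test. Many of these genes have processed pseudogenes that could share their reads, so single members are uncertain. Rps2 had means of 76.8 CPM with VPA and 53.2 CPM with vehicle (0.53, SE 0.22) and Rps28 of 96.0 and 71.6 CPM (0.42, SE 0.19). The list's median was 0.039 with 25 lower without vehicle replicate 1 and 0.17 with 0 lower without vehicle replicate 3. Of 80 nuclear genes of the respiratory chain 64 were higher and 16 lower (median 0.053), among them Cox6b2 (0.50, SE 0.23), and the median turned to -0.016 without vehicle replicate 1.

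Dopamine neuron genes had no member with an unadjusted p under 0.05. Of 22 of them 6 were higher and 16 lower (median -0.094), and their summed level ran from 1340 to 15300 CPM (median 8860) in VPA libraries and from 7580 to 10600 CPM in vehicle libraries. Slc6a3, the dopamine transporter, was at 269 to 4930 CPM with VPA and at 2440 to 3400 CPM with vehicle, and the list's median turned to 0.062 without VPA replicate 3. In other libraries, VPA under the mutant label gave 21 of 22 lower (median -0.29, where 50.4% of all genes were lower). ACY957 under the wildtype label gave 22 of 22 lower (median -0.23, where 50.8% were), or 21 of 22 without ACY957 replicate 8, and 0 passed under either drug. Dopamine receptors and their signalling partners were lower in 10 of 11 tested genes, with a median of -0.32 and 0 past the test. Pde10a, a phosphodiesterase of striatal output neurons, was at 33 to 51.7 CPM (median 34.9) with VPA and at 43.5, 58.3 and 46 CPM with vehicle (-0.37, SE 0.13, unadjusted p = 0.00678, adjusted p = 0.938, edgeR). Adora2a, an adenosine receptor of the same neurons, was at 2.20 to 8.94 CPM (median 4.67) with VPA and at 3.96, 10.7 and 14.1 CPM with vehicle, with overlap (-0.94, SE 0.44). Pde10a was at -0.24 without vehicle replicate 2 and Adora2a at -0.55 without vehicle replicate 3. The VPA vehicle exceeded the ACY957 vehicle in this list by a median of 0.31, a comparison that shares the 3 vehicle libraries with the VPA effect, and the list's median was 0.0070 with VPA under the mutant label and 0.021 with ACY957 under the wildtype label (-0.0012 without ACY957 replicate 8).

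Other neuronal lists gave medians of either sign. Sodium and calcium channel genes were lower in 19 of 24 (median -0.051), with the smallest p for Cacna2d2, a calcium channel subunit (-0.16, SE 0.12), and without vehicle replicate 1 the median was 0.046. Synaptic vesicle genes were lower in 14 of 21 (median -0.063), with the smallest p for Rims1, an active zone protein (-0.28, SE 0.18). Hypothalamic neuropeptides, markers of tissue in front of the region, were higher in 7 of 13 tested and lower in 6 (median 0.021), with the smallest p for Pomc (0.30, SE 0.20). Hypothalamic and mammillary transcription factors were higher in 6 of 9 tested (median 0.13). Their median was 0.81 without vehicle replicate 1 and -0.21 without vehicle replicate 3. VPA under the mutant label gave 9 of 9 higher (median 0.50), and ACY957 under the wildtype label 7 of 9 (median 0.24). Slc17a6, the vesicular glutamate transporter of the region, was at 229 to 678 CPM (median 480) with VPA and at 437, 432 and 463 CPM with vehicle, and 3 of 6 glutamatergic and serotonergic markers tested were higher. The clock was the subject of the mutant line, and under the wildtype label 11 of 19 core clock genes were higher and 8 lower (median 0.026). Clock itself was at 59.9 to 77.4 CPM (median 65.2) in VPA libraries and at 85.0, 68.7 and 57.9 CPM in vehicle libraries (-0.09, SE 0.13), and of 12 clock output genes 7 were higher and 5 lower (median 0.029). Per2 had means of 7.95 CPM with VPA and 7.81 CPM with vehicle, and Dbp of 69.2 and 72.2 CPM.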

How the data were processed

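The authors deposited raw read counts per gene symbol (24421 symbols), with no normalization, from stranded poly(A) libraries read at 75 bases on a NextSeq 500, per the labels' protocols. According to the design text, reads were aligned to mm10 by TopHat2 (2.0.9) and counted by HTSeq (0.6.1, union mode). HISAT2, with Trimmomatic, stands instead in the submitters' processing notes. Whether the counting used strand is not given in the sources used here, so that the counts of overlapping antisense genes are uncertain. Counts of the 11 libraries (22571296 to 37475292 reads) were compared within 1 edgeR 4.0.16 model (R 4.3.3, TMM, filterByExpr, quasi-likelihood F tests) with a mean for each of 8 groups over all 64 libraries. This kept 15634 genes, with Benjamini-Hochberg adjustment at 0.05. Standard errors (SE) were derived from each F statistic as the absolute fold change (log2) divided by its root. Each library is 1 mouse, per the design text, and replicate numbers are names only. The model was tested on simulated counts.

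Named genes were all genes that passed, the 12 with the smallest p in each direction (predicted genes skipped), up to 4 members of each list with an unadjusted p under 0.05 or else the 1 with the smallest p, Clock and Th, and the 5 with the smallest p in the other comparisons. Other list members given as means were picked after their values were seen. The 40 lists are described by counts and medians with no set test. The comparison, lists and rules were chosen with earlier results of these data known. Alternatives were RLE size factors, DESeq2 1.42.0, limma 3.58.1 voom, no low-count filter, the compared groups alone, Th as a covariate and pooled vehicles. Others left out the 16 mutant-labelled vehicle libraries of the highest mouse numbers, or each library in turn. Thinning reads to the smallest library was added after seeing the data, as was the ACY957 effect without its replicate 8. The single values of 2 list members are not reported here.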

Additional observations from a re-analysis of the deposited data

Results flagged for a closer look

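In 12 of the 91 genes named or held for naming, 1 VPA library stood far from the other 7 on the log2 scale by Dixon's test, which flags about 1 group in 20 by chance. VPA replicate 5 was the distant library in 7 of them. It was low for Barhl1, a factor of mammillary and other neurons (0.846 CPM, the others 3.66 to 7.80), Col9a3 (4.05 CPM, the others 7.20 to 9.72), Scd1 (376 CPM, the others 533 to 659) and Slc17a6 (229 CPM, the others 429 to 678). It was high for Cryz (53.7 CPM, the others 34.1 to 41.1), Lcat (31.3 CPM, the others 21.2 to 24.3) and Lcn2, a secreted lipocalin (1.81 CPM, the others 0.0312 to 0.306). VPA replicate 3 was low for Th (98.0 CPM, the others 560 to 1720) and high for Calr (682 CPM, the others 459 to 552). VPA replicate 6 was low for Ugt8a (161 CPM, the others 226 to 286) and high for Brd2, a bromodomain protein (132 CPM, the others 93.6 to 109). VPA replicate 2 was low for Csnk1d, a kinase of the clock (121 CPM, the others 132 to 140).

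The VPA effect on Lect1 differed between the genotype labels by -1.82 on the log2 scale, in the test of the difference itself.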

How the results depend on the processing

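With only 3 vehicle libraries, the count of genes passing for VPA against vehicle (4) ran from 0 to 5 when single libraries were left out: 0 without VPA replicate 5 or vehicle replicate 2, 1 without vehicle replicate 3, and 2 without VPA replicate 6 or vehicle replicate 1. The other alternatives gave 3 to 6 genes. The count for the difference between genotype labels (1) was 2 with no filter on low counts and 0 in the compared groups alone. It was 0 without the 16 mutant-labelled vehicle libraries of the highest mouse numbers, and ran from 0 to 2 when single libraries were left out. The VPA minus ACY957 difference and the vehicle comparison kept a count of 0 in each alternative run. The mean Th difference ran from -0.52 to 0.071, the highest without VPA replicate 3. Of the single genes, 5 turned sign with both vehicles pooled: Bcl7a (-0.083), Brf2 (-0.042), Drd1 (0.16), Lrfn4 (-0.15) and Rgcc (0.12). Leaving out single libraries, Clock ran from -0.22 to 0.063, Hdac4 from -0.56 to 0.079, Nfil3 from -0.38 to 0.026 and Sox6 from -0.44 to 0.038, each highest without vehicle replicate 1. When single libraries were left out, the fitted log2 fold change of Th ran from -0.21 to 0.13 and was 0.13 without VPA replicate 3, 0.046 without VPA replicate 7 and 0.065 without vehicle replicate 2, and with voom on all libraries it was -0.36. None of these had passed, and the causes were not tested. No paired analysis was possible because the labels number no replicates. Leaving out a vehicle library leaves 2. The fit takes their spread to be like that of the other groups, as the fit to all 64 libraries does for the 3. At the depth of the vehicle libraries, genes under about 1 CPM rest on few counts.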
